A study of Mus musculus with 21 samples.

Results

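The interferon-induced GTPases described here were 10 genes, Gbp2, Gbp3, Gbp4, Gbp5, Gbp6, Gbp7, Irgm1, Irgm2, Igtp and Iigp1, picked by symbol from the 23420 genes of the count table, and each of the 10 had a row. RNA-Seq was done on sorted inflammatory monocytes (IMs), which were enriched with a kit and gated on CD45, CD11b and Ly6C, without Ly6G, and in lung tissue also without Siglec-F. IMs from tumors are called tumor IMs (TIMs). TIMs came from primary tumors (n = 5) and lymph node metastases (n = 5) of the LN2E1 model, in which 500000 cells of KAL-LN2-E1, a lung squamous carcinoma line made by passaging in mice, were placed orthotopically in the lungs of FVB mice. TIMs also came from lung metastases (n = 5) of the LN4K1 model, in which 300000 cells derived from KLN-205 were injected intravenously into DBA2 mice. Bone marrow (BM) IMs of FVB mice (n = 3) and DBA2 mice (n = 3) without tumors were the baselines. Tumor cells went into adult mice of both sexes, per the study's methods, and the labels name no transgene or gene deletion in any group. Each model rests on a single cell line, and line, strain, route and number of injected cells all differ together between the models. Primary tumor and metastasis differ as well where LN2E1 primary tumors are set against LN4K1 lung metastases. Tumor and tissue differ together between TIMs and BM IMs, as metastasis and tissue do between lymph node and primary tumor TIMs. These cannot be told apart. Tumors of both models grew in the lung, apart from the lymph node metastases. Nothing in the labels ties replicates to separate animals and the study's methods call them technical replicates, so p-values measure the spread between these samples, which may be technical.

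Guanylate-binding proteins (Gbp genes) are large GTPases that interferons induce strongly, above all interferon gamma. They assemble as coats on the vacuoles and membranes of bacteria and parasites inside a cell and help to set off inflammasomes. The immunity-related GTPases fall into regulators (Irgm1, Irgm2 and Igtp, which guard the cell's own membranes) and effectors (such as Iigp1, which loads onto parasite vacuoles). Interferon gamma signals through JAK kinases to factors that bind GAS elements and that in turn induce IRF1. IRF1 and the factors that type I interferon activates bind interferon-stimulated response elements (ISREs). Monocytes are among the cells in which this response is best known.

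Most of the genes have a neighbour of the family. Gbp5, Gbp7, Gbp3 and Gbp2 stand in that order on chromosome 3 of GRCm38 (mm10), Gbp4 and Gbp6 near each other on chromosome 5, and Igtp and Irgm2 next to each other on chromosome 11, with Irgm1 elsewhere on that chromosome. Promoters (250 bases before to 50 bases after the start, RefSeq, GRCm38.p6) were matched for 7 of the 10 genes and were searched on both strands for the ISRE core GAAANNGAAA and the GAS core TTCNNNGAA. The stretch before the start that holds the ISRE core is shown for each, since these are the letters that the interferon-activated factors recognise. All 7 held an ISRE core, against 3.44% of 32851 RefSeq promoters of the same length, and 4 (Gbp5, Gbp7, Irgm2 and Igtp) also held a GAS core, against 8.3%. Both cores together stood in 0.454% of promoters. The windows lie at chr3:142620544-142620633 (plus strand, Gbp2), chr3:142559939-142560034 (plus, Gbp3), chr3:142496709-142496798 (plus, Gbp5), chr3:142530223-142530312 (plus, Gbp7), chr11:48871421-48871510 (minus, Irgm1), chr11:58214853-58214942 (plus, Irgm2) and chr11:58199462-58199551 (plus, Igtp). They are written 5′ to 3′ on the strand of the gene, and capitals mark ISRE and GAS cores.
Gbp2: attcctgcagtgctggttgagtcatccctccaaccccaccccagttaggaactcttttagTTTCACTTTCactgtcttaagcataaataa
Gbp3: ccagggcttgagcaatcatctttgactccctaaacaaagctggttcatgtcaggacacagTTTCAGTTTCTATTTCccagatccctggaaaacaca
Gbp5: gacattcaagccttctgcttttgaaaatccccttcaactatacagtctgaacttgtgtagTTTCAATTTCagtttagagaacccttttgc
Gbp7: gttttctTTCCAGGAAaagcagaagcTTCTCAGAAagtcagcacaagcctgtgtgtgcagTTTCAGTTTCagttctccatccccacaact
Irgm1: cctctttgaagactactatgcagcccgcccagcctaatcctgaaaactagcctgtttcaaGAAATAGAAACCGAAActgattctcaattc
Irgm2: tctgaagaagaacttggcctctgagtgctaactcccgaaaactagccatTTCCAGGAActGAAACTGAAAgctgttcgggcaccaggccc
Igtp: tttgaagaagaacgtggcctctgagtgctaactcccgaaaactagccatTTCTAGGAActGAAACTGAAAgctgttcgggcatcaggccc
The ISRE cores of the 4 chromosome 3 genes read on the reverse strand and those of chromosome 11 on the forward strand. Gbp3 and Irgm1 each held 2 overlapping ISRE cores, so that the capitals form 1 longer run. No ISRE core overlapped a GAS core. The ISRE core began 59 bases before the start in Gbp2, 53 in Gbp7 and 34 in Igtp, but 165 in Gbp5, whose 2 GAS cores lay outside the window shown. A second listed promoter of Gbp3 held neither core. The windows of Igtp and Irgm2 were the same at 86 of 90 positions, with the GAS core directly upstream of the ISRE core in each. A match is a description of these letters and not a measurement of binding. Gbp4, Gbp6 and Iigp1 had no entry.

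On GRCm38 the gene spans in the GENCODE annotation, in which all 10 are protein coding, are chr3:142493978-142522344 for Gbp5, chr3:142530342-142550149 for Gbp7, chr3:142560026-142573209 for Gbp3 and chr3:142620602-142638008 for Gbp2, all on the plus strand. Gbp4 lies at chr5:105115767-105139586 and Gbp6 at chr5:105270702-105293698, both on the minus strand. Irgm1 lies at chr11:48861968-48871683 on the minus strand. Igtp (chr11:58199556-58207591) and Irgm2 (chr11:58199618-58222782) lie on the plus strand and overlap, with 162 exon bases in common. For some genes these spans begin upstream of the RefSeq start used for the promoter. The windows shown for Irgm2, Gbp5 and Irgm1 thus lie inside the GENCODE spans, and those for Gbp2 and Gbp3 reach into them.

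The values are raw read counts, and libraries held between 80772922 and 101043568 counts, so that counting error was small for all but the lowest values in marrow. Levels are given as CPM, the counts of a gene relative to the size of its library, scaled with TMM factors over the 21 libraries. Near-identical neighbours limit some genes. Of the 50-base stretches in the exons of Gbp6, 70.7% also occur in other genes, among them 65% in Gm43302 and 45.9% in Gbp10. That share was 12.7% for Gbp7 and 11.8% for Igtp, whose stretches are shared with Irgm2, and it was 7.83% or less for the other 7 genes. How the authors' counting treated such reads is not given in the sources used here, and the libraries carried no strand. Values of Gbp6 are therefore uncertain in the way they split between Gbp6, Gm43302 and Gbp10. Reads of both strains were aligned to mm10, and the part of sequence differences between the strains in the counts was not tested.

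Genes that mark monocytes and the sort (Ptprc, Itgam, Ly6c2, Ccr2, Csf1r, Fcgr1 and F13a1) were present at a mean of at least 1 CPM in every group, 7 of 7, with summed levels from 8590 CPM in an FVB BM IM library to 13855 CPM in an LN4K1 lung library. Markers of other cells moved with the groups in most lists, but not in all. The 6 neutrophil and precursor genes, led by Mpo in marrow, summed to 3628-4581 CPM in FVB BM IMs, 2444-2988 CPM in DBA2 BM IMs, 25.6-180 CPM in primary tumor TIMs, 8.04-41.4 CPM in lymph node TIMs and 110-392 CPM in LN4K1 lung TIMs. The 6 T cell genes summed to at most 3.17 CPM in BM IMs, with Cd3e and Cd8a at or under 3 counts in each BM library, and to 10.3-27.9, 4.05-55.9 and 7.26-24.4 CPM in primary tumor, lymph node and lung TIMs. The 6 NK cell genes summed to 0.0804-9.23 CPM in FVB BM IMs, were all at 0 in DBA2 BM IMs, and reached 3.41-16.3 CPM across TIM libraries. Epithelial genes (6, led by Sftpc) summed to 67.1-651 CPM and fibroblast genes (4, led by Col1a2) to 168-545 CPM in primary tumor TIMs, against at most 85.6 and 46.1 CPM in the other TIM groups and at most 0.123 and 0.359 CPM in BM IMs. The 8 macrophage genes summed to 178-240 CPM in FVB BM IMs against 298-476 (primary tumor) and 277-428 CPM (lymph node), and to 180-225 CPM in DBA2 BM IMs against 217-373 CPM in lung TIMs. The 4 endothelial genes summed to at most 1.47 CPM in BM IMs and to 5.24-16.4, 2.69-12.8 and 1.35-2.90 CPM in primary tumor, lymph node and lung TIMs. The 4 eosinophil genes summed to 414-1073 CPM in BM IMs and to at most 67.1 CPM in TIMs, and the 6 dendritic cell genes to 8.77-19.6 CPM in BM IMs and 29.2-85.1 CPM in TIMs. The part of these cells in the results that follow was not tested, and in bulk samples fewer cells of a type and less RNA per cell cannot be told apart.

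Across all groups the 10 GTPases had low levels in BM IMs and high levels in TIMs. Together they took 0.0165-0.0244% of the counts of an FVB BM IM library and 0.0342-0.0451% of a DBA2 BM IM library. They took 0.272-0.367% in primary tumor TIMs, 0.360-0.544% in lymph node TIMs and 0.113-0.204% in LN4K1 lung TIMs. For every one of the 10, no TIM library fell as low as any BM IM library of the same strain. Each panel in the plot of CPM by library shows this gap between marrow and tumor.

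Ordered by mean CPM, Gbp2 and Irgm1 ran from lymph node TIMs through primary tumor TIMs, lung TIMs and DBA2 BM IMs down to FVB BM IMs, with no overlap between the libraries of neighbouring groups. Gbp3, Gbp7, Irgm2, Igtp and Iigp1 had the same order of means, but neighbours overlapped. Primary tumor and lung TIMs overlapped for Gbp3 and Irgm2, lymph node and primary tumor TIMs for Gbp7 and Igtp, and both of these pairs and the 2 marrows for Iigp1. Gbp4 had FVB above DBA2 BM IMs, with overlap there and between lymph node and primary tumor TIMs, and Gbp5 had primary tumor above lymph node TIMs, with overlap there and between the marrows. Gbp6 alone had its highest mean in LN4K1 lung TIMs, and the 3 TIM groups overlapped as neighbours.

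**Figure D1:**
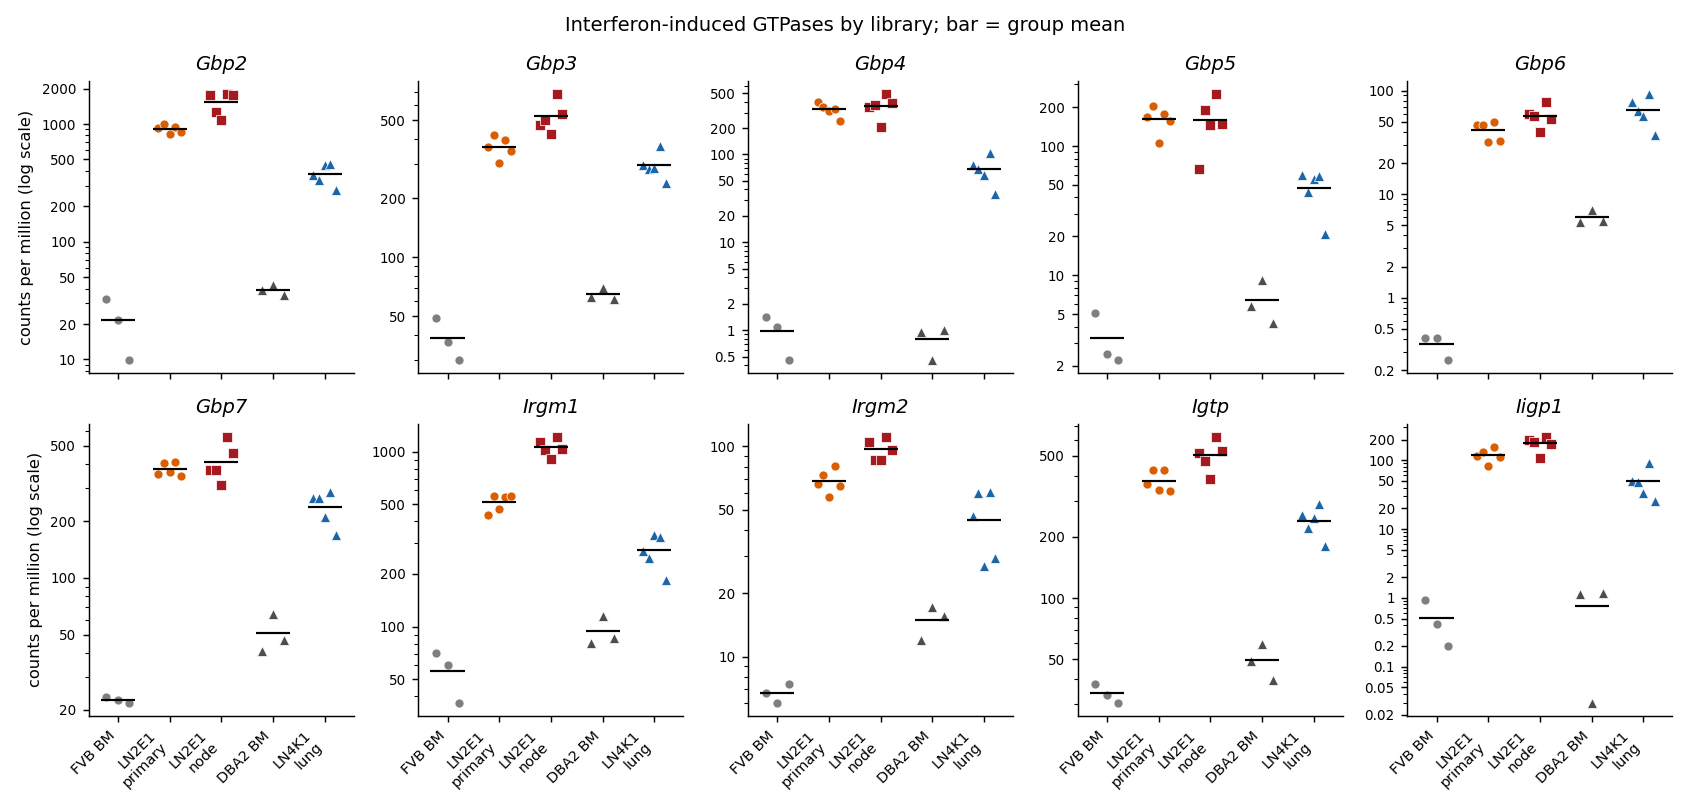
CPM (log axis, its range set per panel) of each of the 10 GTPases in the 21 libraries, with 1 point per library and a bar at the group mean. The 15 TIM libraries lie above the BM IM libraries of their strain in all 10 panels, and Gbp6 is the panel in which DBA2 BM IMs (5.35-7.08 CPM) lie farthest above FVB BM IMs (0.25-0.409 CPM).

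To find how far the GTPases differ between IMs in an LN2E1 primary tumor and IMs in the marrow of the same strain, the 5 primary tumor libraries were compared with the 3 FVB BM IM libraries with the quasi-likelihood test of edgeR, adjusted by Benjamini-Hochberg across the genes tested. All 10 rose at an adjusted p under 0.05, where 33.3% of the 14569 genes tested rose. All 10 were also DEGs (adjusted p under 0.0001 and more than 1 on the log2 scale), against 7.72% of genes that were DEGs and higher. Every primary tumor library lay above every FVB BM IM library for the 10, as for 30.7% of all genes. Their median log2 fold change was 4.72 (a 26.3-fold difference), with a range of 3.19 to 8.37, beside a median of 0.08 over all genes.

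Gbp4, a guanylate-binding protein that has been described as a brake on IRF7, had the largest rise of the 10. It was at 1.41, 1.08 and 0.465 CPM in FVB BM IMs and at 391, 351, 312, 331 and 242 CPM in primary tumor TIMs. The marrow values came from 124, 106 and 52 counts, so Gbp4 was detected there at a low level, and the groups did not come near each other. Its log2 fold change was 8.37 ± 0.40 (SE, adjusted p = 4.04e-07). Iigp1, the vacuole-loading effector, was likewise low in marrow, with 22 to 82 counts. It was at 0.932, 0.418 and 0.197 CPM in FVB BM IMs and at 116, 132, 81.8, 157 and 113 CPM in primary tumor TIMs. Its log2 fold change was 7.88 ± 0.51 (SE, adjusted p = 2.18e-06). Gbp6 was at 0.409, 0.408 and 0.25 CPM in marrow and at 46.5, 46.4, 32.2, 49.3 and 32.3 CPM in tumors, a log2 fold change of 6.85 ± 0.28 (SE, adjusted p = 1.59e-07). These 3 genes had the lowest levels of the 10 in FVB marrow.

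Gbp2, which coats parasite vacuoles, was the most abundant of the 10 per kilobase in primary tumor TIMs. It was at 32.8, 21.7 and 9.89 CPM in FVB BM IMs and at 926, 1010, 823, 943 and 856 CPM in primary tumor TIMs. The 3 marrow libraries spread widely while the 5 tumor libraries stayed close together (coefficient of variation 53.4% and 8.09%). Its log2 fold change was 5.40 ± 0.38 (SE, adjusted p = 3.25e-06). Gbp5, which promotes assembly of the NLRP3 inflammasome, was at 5.14, 2.48 and 2.21 CPM in marrow and at 166, 204, 106, 177 and 157 CPM in primary tumors. Its log2 fold change was 5.62 ± 0.37 (SE, adjusted p = 2.12e-06). Gbp7, linked to delivery of the NADPH oxidase to bacteria, rose by 4.04 ± 0.11 (SE) on the log2 scale, Igtp by 3.46 ± 0.13, Irgm2 by 3.33 ± 0.15 and Gbp3 by 3.23 ± 0.18. Irgm1, the regulator that keeps effector GTPases off the cell's own membranes, was at 70.9, 59.9 and 36.7 CPM in marrow and at 435, 559, 473, 546 and 556 CPM in tumors. It had the smallest log2 fold change, 3.19 ± 0.21 (SE, adjusted p = 2.03e-06).

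**Figure D2:**
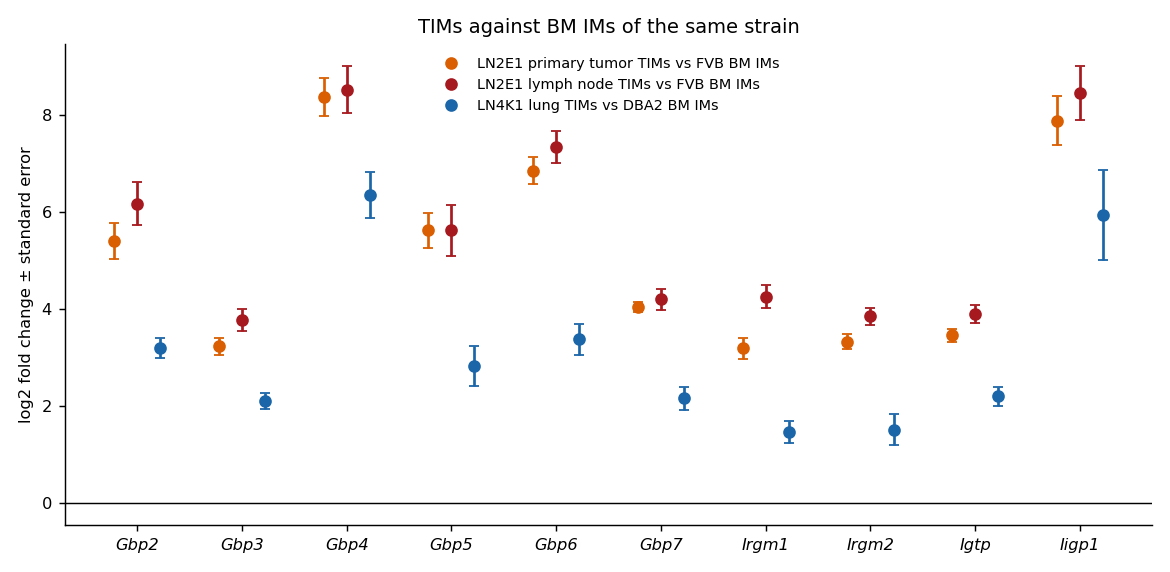
Log2 fold change (y axis) with its standard error of each of the 10 GTPases in 3 comparisons of TIMs with BM IMs of the same strain, in which every point passed an adjusted p under 0.05. LN2E1 values run from 3.19 to 8.52 and LN4K1 values from 1.46 to 6.34, and Gbp4 and Iigp1 are the 2 highest in each comparison.

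The order of levels also differed between marrow and tumor. Per kilobase of the longest coding transcript, the highest mean level in FVB BM IMs was that of Irgm1 (24.7 CPM per kilobase), followed by Igtp (16.8), Gbp3 (14.4), Gbp2 (8.53) and Gbp7 (4.02). Irgm2 (1.90), Gbp5 (1.07), Gbp4 (0.217), Iigp1 (0.165) and Gbp6 (0.137) completed the order. In primary tumor TIMs the order of mean CPM per kilobase began with Gbp2 (362), Irgm1 (228), Igtp (187) and Gbp3 (137). It went on with Gbp4 (71.7), Gbp7 (66.9), Gbp5 (53.1), Iigp1 (38.5), Irgm2 (19.4) and Gbp6 (15.9). In these means Gbp2 thus moved from the fourth place to the first and Gbp4 from the eighth to the fifth. Libraries of neighbours overlapped, such as Gbp4 (53.3-86.2) and Gbp7 (61.4-72.9 CPM per kilobase) in primary tumor TIMs. Places also depend on the length used. All annotated exons together hold 5810 bases for Irgm1 and 7494 for Gbp4, against 2259 and 4538 in the longest coding transcript. The order with those lengths was not computed. Of the counts on the 10 genes, Gbp2 took 7.10-14.4% in FVB BM IMs, 26.8-28.7% in primary tumor TIMs, 28.2-34.9% in lymph node TIMs, 11.1-13.2% in DBA2 BM IMs and 20.5-25.5% in LN4K1 lung TIMs. The 4 immunity-related GTPases (Irgm1, Irgm2, Igtp and Iigp1) together took 51.0-54.0% in FVB BM IMs and 30.4-35.1% in primary tumor TIMs.

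In lymph node metastases of LN2E1 the same test against FVB BM IMs gave 10 of 10 genes higher, where 20.2% of the 13273 genes tested rose, and 10 of 10 DEGs, where 4.01% were DEGs and higher. For all 10, each lymph node library lay above each marrow library, as for 20.1% of genes. The median log2 fold change of the 10 was 4.93 (range 3.77 to 8.52) beside -0.04 over all genes. This comparison uses the same marrow libraries as the one with primary tumors, so their values stand side by side and are not independent. Gbp4 was at 348, 361, 206, 484 and 389 CPM in the 5 lymph node libraries (log2 fold change 8.52 ± 0.49, SE) and Iigp1 at 198, 182, 109, 218 and 175 CPM (8.44 ± 0.55, SE). The fold change of Gbp2 was 6.16 ± 0.44 (SE) and that of Gbp5 5.62 ± 0.53 (SE), the least precise of the Gbp genes.

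The LN4K1 model asks the same question in another strain. Against DBA2 BM IMs, 10 of 10 genes rose in lung metastasis TIMs, where 13.9% of the 13624 genes tested rose, and every lung library lay above every DBA2 BM IM library for the 10, as for 19.9% of genes. The median log2 fold change was 2.51 (a 5.70-fold difference), with a range of 1.46 to 6.34, beside 0.03 over all genes. Gbp2, Gbp3, Gbp4, Gbp6 and Igtp were DEGs (5 of 10), where 1.21% of genes were DEGs and higher. That count depends on the libraries kept and on the tool. It was 0 without DBA2 BM IM replicate 1, 2 or 3, 3 without LN4K1 lung replicate 1, 2 or 4, and 10 with DESeq2. The count over all genes moved as well. DEGs that were higher went from 165 to 31, 37 and 25 without a DBA2 library and to 81, 87 and 74 without these lung libraries. With DESeq2 they were 871 (shrunken) or 894 (unshrunken) of 17612 genes fitted. All 10 rose at an adjusted p under 0.05 in each of these fits.

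Gbp4 again rose the most. It was at 0.945, 0.459 and 1.01 CPM in DBA2 BM IMs and at 76.8, 68.3, 58.2, 105 and 35.7 CPM in lung TIMs, a log2 fold change of 6.34 ± 0.48 (SE, adjusted p = 1.68e-05). Iigp1 was at 50.02, 48.8, 32.9, 90.04 and 25.9 CPM in lung TIMs and rose by 5.93 ± 0.92 (SE, adjusted p = 0.0014). Its marrow values were uneven, at 1.12, 0.0299 and 1.16 CPM (109, 3 and 110 counts), and replicate 2 sat at the limit that a count of 0 allows while the other 2 libraries did not. Gbp2 was at 39.2, 42.7 and 35.6 CPM in marrow and at 372, 336, 449, 461 and 274 CPM in lung TIMs, a log2 fold change of 3.20 ± 0.21 (SE, adjusted p = 6.97e-06). Irgm1 and Irgm2, the regulators, had the smallest rises, 1.46 ± 0.22 (SE, adjusted p = 0.00119) and 1.51 ± 0.32 (SE, adjusted p = 0.00746). Igtp, the third regulator, rose by 2.20 ± 0.20 (SE). Within the lung group, replicate 4 had the highest value for 8 of the 10 genes and replicate 5 the lowest for 9.

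Between the models the sizes of these changes were compared as an interaction, the change in LN2E1 primary tumors minus the change in LN4K1 lung metastases. It was above 0 at an adjusted p under 0.05 for 9 of 10 genes, where 13.2% of the 15182 genes tested were, with a median of 1.93 on the log2 scale. The difference was largest for Gbp6, at 3.49 ± 0.39 (SE, adjusted p = 6.01e-05), followed by Gbp5 (2.81 ± 0.50, SE, adjusted p = 0.00146), Gbp2 (2.22 ± 0.37, SE) and Gbp4 (2.04 ± 0.51, SE). It was 1.90 ± 0.24 (SE) for Gbp7, 1.83 ± 0.35 for Irgm2, 1.74 ± 0.30 for Irgm1, 1.28 ± 0.23 for Igtp and 1.14 ± 0.22 for Gbp3. For Iigp1 it was 1.95 ± 0.89 (SE, adjusted p = 0.118), and without DBA2 BM IM replicate 2, the library with 3 counts, it was 2.52 (adjusted p = 0.0165).

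The marrow and the tumor ends of that difference were also looked at apart. At the marrow end, 6 of 10 genes were higher in DBA2 than in FVB BM IMs, where 11.5% of the 12905 genes tested were, and none was lower. At an unadjusted p under 0.05, 8 were higher and 0 lower, and the share of all genes at that threshold was not counted. None of the 10 was a DEG by edgeR, where 0.279% of genes were DEGs and higher. By DESeq2 3 of the 10 were, where 391 (shrunken) or 443 (unshrunken) of 16692 genes fitted were DEGs and higher. For 7 of 10, each DBA2 library lay above each FVB library, as for 20.5% of genes. Gbp6 stood apart with 5.35, 7.08 and 5.53 CPM in DBA2 BM IMs against 0.409, 0.408 and 0.25 CPM in FVB BM IMs, a log2 difference of 4.10 ± 0.34 (SE, adjusted p = 0.00018). The next were Gbp7 (1.196 ± 0.173, SE, adjusted p = 0.00296) and Irgm2 (1.17 ± 0.20, SE, adjusted p = 0.00642), and Gbp3, Irgm1 and Igtp differed by 0.78, 0.78 and 0.56. Gbp2, Gbp5, Iigp1 and Gbp4 did not pass (log2 differences 0.90, 0.99, 0.62 and -0.25). The count of 6 was 3 without FVB BM IM replicate 2 and 3 without DBA2 BM IM replicate 2, and Irgm1 and Igtp were near the threshold (adjusted p = 0.0441 and 0.0425).

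At the tumor end 9 genes had lower levels in DBA2 mice. Mean log2 CPM was lower in LN4K1 lung TIMs than in LN2E1 primary tumor TIMs for all but Gbp6, with lung minus primary differences of -2.31 for Gbp4, -1.83 for Gbp5, -1.38 for Iigp1 and -1.29 for Gbp2 and smaller gaps for the other 5. These are descriptions, given without a test. The 5 lung libraries lay below the 5 primary tumor libraries for 6 genes, and below the 5 lymph node libraries for the 9. The share of all genes that lay apart in this way was not counted, so neither number can be read as particular to the GTPases. Gbp6 was the exception, at 77.0, 63.5, 56.5, 92.1 and 37.1 CPM in lung TIMs against 46.5, 46.4, 32.2, 49.3 and 32.3 CPM in primary tumor TIMs, with overlap between the groups.

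Gbp4 and Gbp6, both on chromosome 5, thus stood in different proportions in the 2 models. The ratio of Gbp6 to Gbp4 CPM was 0.290-0.539 in FVB BM IMs, 0.103-0.149 in primary tumor TIMs and 0.139-0.193 in lymph node TIMs. In DBA2 mice it was 5.46-15.4 in BM IMs and 0.875-1.04 in lung TIMs. No DBA2 library overlapped any FVB library in this ratio, in marrow or in tumor. Within each strain the ratio was lower in TIMs than in BM IMs in every library. Gbp10, which shares stretches with Gbp6, averaged 40.7 ± 7.74 CPM (SD, n = 5) in primary tumor TIMs and 16.1 ± 5.34 CPM (SD, n = 5) in lung TIMs. In marrow it averaged 0.233 ± 0.233 CPM (SD, n = 3) in FVB and 1.40 ± 0.14 CPM (SD, n = 3) in DBA2 BM IMs, without overlap. That difference did not pass by edgeR (log2 difference 2.62 ± 1.15, SE, adjusted p = 0.138). Gbp8 and Gbp9, whose annotated exons overlap those of Gbp4 by 61 and 60 bases, were lower in DBA2 than in FVB BM IMs by edgeR (log2 differences -2.17 ± 0.51 and -2.39 ± 0.25, SE; adjusted p = 0.0213 and 0.000666). How reads split between Gbp6, Gm43302 and Gbp10 in each strain was not tested, nor was the part of strain sequence differences from mm10 in these values.

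**Figure D3:**
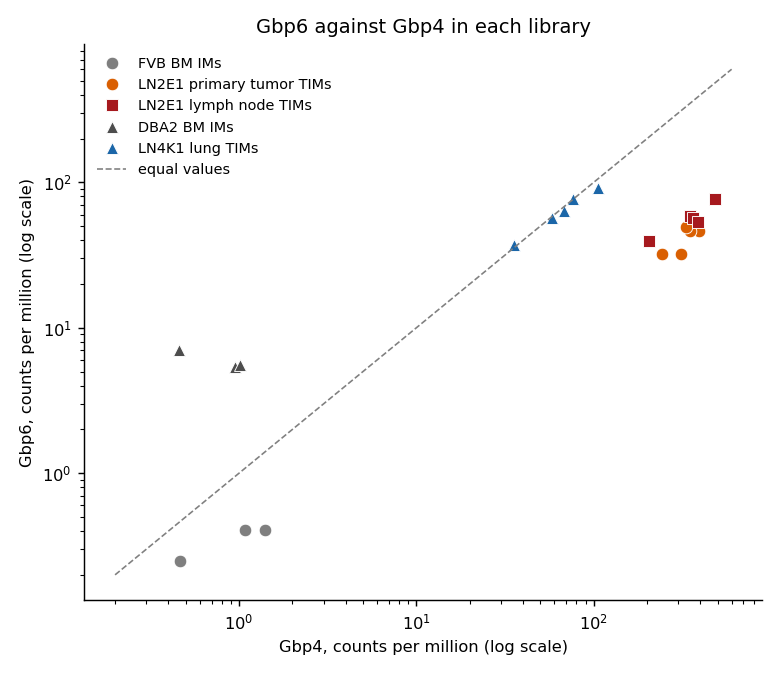
CPM of Gbp6 (y axis) against CPM of Gbp4 (x axis) in the 21 libraries, both on log axes, with a dashed line where they are equal. The 8 DBA2 libraries lie near or above the line (Gbp6 to Gbp4 ratio 0.875 to 15.4) and the 13 FVB libraries lie below it (0.103 to 0.539).

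Within the LN2E1 model, lymph node TIMs were compared with primary tumor TIMs. Tissue and the levels of other cells' genes differ together with the site, so metastasis cannot be told apart from these. Of the 10 genes, 4 were higher in lymph nodes, and none was lower, where 6.15% of the 13488 genes tested were higher. At an unadjusted p under 0.05, 7 were higher and 0 lower, and the share of all genes at that threshold was not counted. None was a DEG by edgeR (0% of genes were DEGs and higher). With unshrunken fold changes of DESeq2 1 was, where 48 of 18759 genes fitted were DEGs and higher. Irgm1 differed the most, at 1140, 1016, 905, 1212 and 1029 CPM in lymph node TIMs against 435, 559, 473, 546 and 556 CPM in primary tumor TIMs. Its log2 fold change was 1.06 ± 0.11 (SE, adjusted p = 0.000349), and the 2 groups were far apart. Gbp2 was at 1754, 1270, 1076, 1789 and 1779 CPM in lymph nodes and 823-1010 CPM in primary tumors, a log2 fold change of 0.76 ± 0.15 (SE, adjusted p = 0.00704). Gbp3 (0.53 ± 0.13, SE, adjusted p = 0.0262) and Irgm2 (0.51 ± 0.12, SE, adjusted p = 0.0164) completed the 4, which were also the 4 genes whose libraries did not overlap (5.61% of all genes were higher without overlap).

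The other 6 had log2 differences of 0.57 ± 0.20 (SE, adjusted p = 0.0953) for Iigp1, 0.48 ± 0.19 (SE, adjusted p = 0.125) for Gbp6 and 0.42 ± 0.13 (SE, adjusted p = 0.0554) for Igtp. Gbp7, Gbp4 and Gbp5 had 0.15 ± 0.15, 0.15 ± 0.20 and -0.01 ± 0.29 (SE). Gbp5 was the most uneven gene of the lymph node group, at 66.1, 191, 146, 251 and 147 CPM, with replicate 1 below every primary tumor library. Lymph node replicate 4 had the highest value for 10 of 10 genes and replicate 3 the lowest for 8, and 7 genes rather than 4 passed without replicate 3. Levels of the 6 T cell genes ran from 4.05 to 55.9 CPM across the lymph node libraries, and their part in these differences was not tested.

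**Figure D4:**
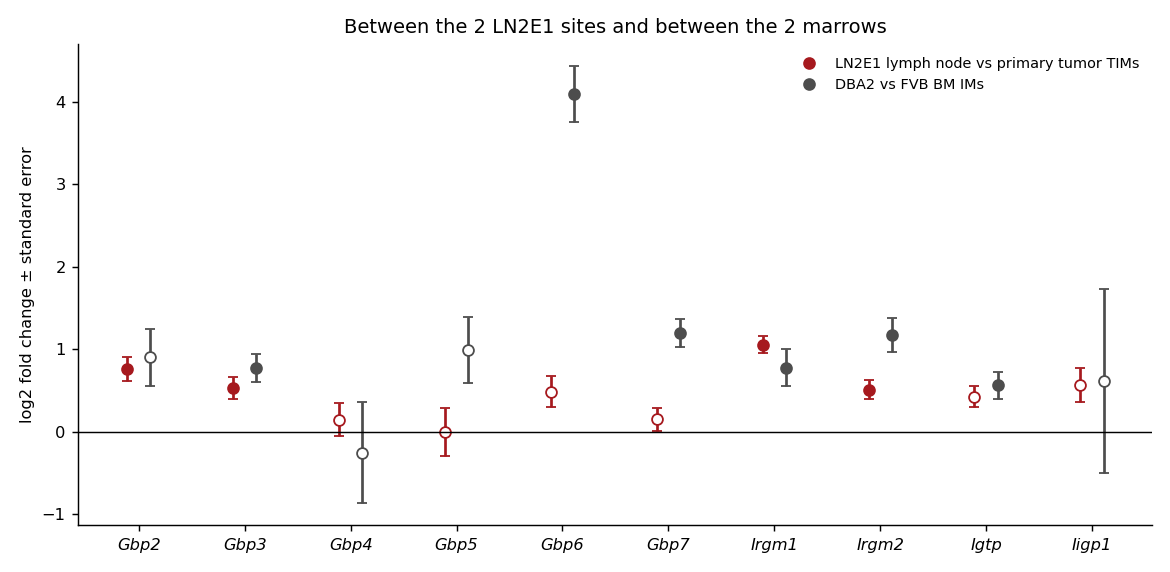
Log2 fold change (y axis) with its standard error of each of the 10 GTPases between LN2E1 lymph node and primary tumor TIMs and between DBA2 and FVB BM IMs, with filled points at an adjusted p under 0.05 and open points at a larger one. Irgm1 (1.06) leads the first comparison and Gbp6 (4.10) the second, in which Iigp1 has the widest error (1.11).

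The other interferon-induced GTPases in the table were 19 genes, of which 17 were tested. All 17 rose in primary tumor TIMs (median log2 fold change 4.60) and all 17 in lymph node TIMs (median 5.12). In LN4K1 lung TIMs 13 rose, 1 fell and 3 did not pass (median 2.80). For these and the lists that follow, the shares of all genes tested that rose were 33.3%, 20.2% and 13.9% in primary tumor, lymph node and lung TIMs. The one that fell was Mx1, a dynamin-like GTPase of the type I interferon response, at -0.72 ± 0.23 (SE, adjusted p = 0.0491). Among the rest, Gbp10 rose by 7.48 ± 0.76 (SE) on the log2 scale in primary tumor TIMs and Gbp11 by 5.73 (adjusted p = 0.00272) in lung TIMs. F830016B08Rik had at most 1 count in any of the 6 BM IM libraries and 554-1281, 406-1052 and 11-590 counts in primary tumor, lymph node and lung TIMs, and Gm4841 had at most 1 count in BM IM libraries and 164-898, 19-294 and 3-426 counts. No fold change is given for these 2, and the medians were the same with both at the lower bound that 3 counts per marrow library allow. Between lymph node and primary tumor TIMs, 8 of the 17 were higher and 0 lower, where 6.15% of all genes tested were higher. Gbp1 (the gene now named Gbp2b, 1.17 ± 0.22, SE) and Gm4951 (1.11 ± 0.19, SE) led these.

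Interferon genes themselves were barely detected. Ifng had 0 to 33 counts in a library, and more than 3 counts in 1 of 3 FVB BM IM, 0 of 3 DBA2 BM IM, 2 of 5 primary tumor, 1 of 5 lymph node and 4 of 5 lung libraries. Ifnb1 reached at most 14 counts, Ifna2 at most 14, and Ifna1, Ifna4 and Ifna5 had 0 counts throughout, where 0 counts allow up to 3. Of the 6, only Ifng could be tested in lung TIMs and it did not pass (adjusted p = 0.0524). In the interaction, where 13.2% of all genes tested passed above 0, 1 of 2 passed (Ifnb1, adjusted p = 0.0493). Fold changes are not given on such counts. Other cells of the tissue were not measured. The receptors and kinases (Ifngr1, Ifngr2, Ifnar1, Ifnar2, Jak1, Jak2 and Tyk2) had 7 of 7 genes tested, of which 6 rose in primary tumor TIMs, 5 in lymph node TIMs and 2 in lung TIMs, where 1 fell (33.3%, 20.2% and 13.9% of all genes tested rose). Ifnar1, a subunit of the type I receptor, led in primary tumors with 1.42 ± 0.14 (SE, adjusted p = 2e-05), and Jak2 in lung TIMs with 1.06 ± 0.27 (SE, adjusted p = 0.0194).

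Irf1, the transcription factor between receptor and ISRE that interferon gamma induces, rose in all 3 comparisons of TIMs with BM IMs, while Irf2, Irf7, Irf8 and Irf9 rose in both LN2E1 sites and did not pass in lung TIMs (log2 fold changes there of 0.085, 0.53, -0.46 and 0.081). Irf1 was at 129 ± 40.4 CPM (SD, n = 3) in FVB BM IMs, 955 ± 99.0 CPM (SD, n = 5) in primary tumor TIMs and 1558 ± 98.3 CPM (SD, n = 5) in lymph node TIMs. It was at 125 ± 24.6 CPM (SD, n = 3) in DBA2 BM IMs and 479 ± 47.1 CPM (SD, n = 5) in lung TIMs. Its log2 fold changes were 2.87, 3.60 and 1.86 in the 3 comparisons with marrow, and it was one of the genes higher in lymph node than in primary tumor TIMs (0.72 ± 0.09, SE, adjusted p = 0.00073). Its interaction between the models was 1.03 ± 0.24 (SE, adjusted p = 0.00616). Of 5 inhibitors of the signal, 3 rose and 1 fell in primary tumor TIMs, 4 rose in lymph node TIMs and 2 rose in lung TIMs. Socs1 rose in all 3 (4.37, 5.38 and 2.96) and Socs3 in all 3 (8.86, 8.15 and 7.98). Usp18, which shuts off the type I receptor, rose in LN2E1 TIMs (2.39 in primary tumors and 3.01 in lymph nodes), had 0.27 ± 0.23 (SE, adjusted p = 0.429) in lung TIMs and had an interaction of 2.14 ± 0.34 (SE, adjusted p = 0.000667). Pias1 was the gene that fell (-0.44 ± 0.08, SE, adjusted p = 0.00131 in primary tumors), and Ptpn2, a phosphatase gene, passed in lymph node TIMs (0.61 ± 0.12, SE, adjusted p = 0.00339).

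Targets outside the GTPases were counted in the same comparisons. Of 12 other interferon gamma targets, 10 rose in primary tumor, 10 in lymph node and 10 in lung TIMs (median log2 fold changes 2.47, 2.62 and 1.19). They were led by Cxcl9, a chemokine for T cells (7.37 ± 0.38, SE, in primary tumors and 5.67 ± 0.53, SE, in lung), and Cd274, which encodes PD-L1 (7.17 ± 0.28, SE, and 3.68 ± 0.30, SE). Of 11 genes of the type I interferon response, 11 rose in primary tumor TIMs and 11 in lymph node TIMs (medians 4.46 and 4.90). In lung TIMs 3 rose (Isg15, Zbp1 and Oasl2), 1 fell (Cmpk2, -0.84 ± 0.15, SE, adjusted p = 0.00282) and 7 did not pass (median 0.49), and the interaction passed for 10 of 11 (median 3.73). At the marrow end, 10 of these 11 were higher in DBA2 than in FVB BM IMs (median 2.24). Of all genes tested, 13.2% passed above 0 in the interaction and 11.5% were higher in DBA2 BM IMs. In lung TIMs, then, 10 of 10 GTPases and 3 of 11 type I response genes rose, and the lists were not tested against each other.

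**Figure D5:**
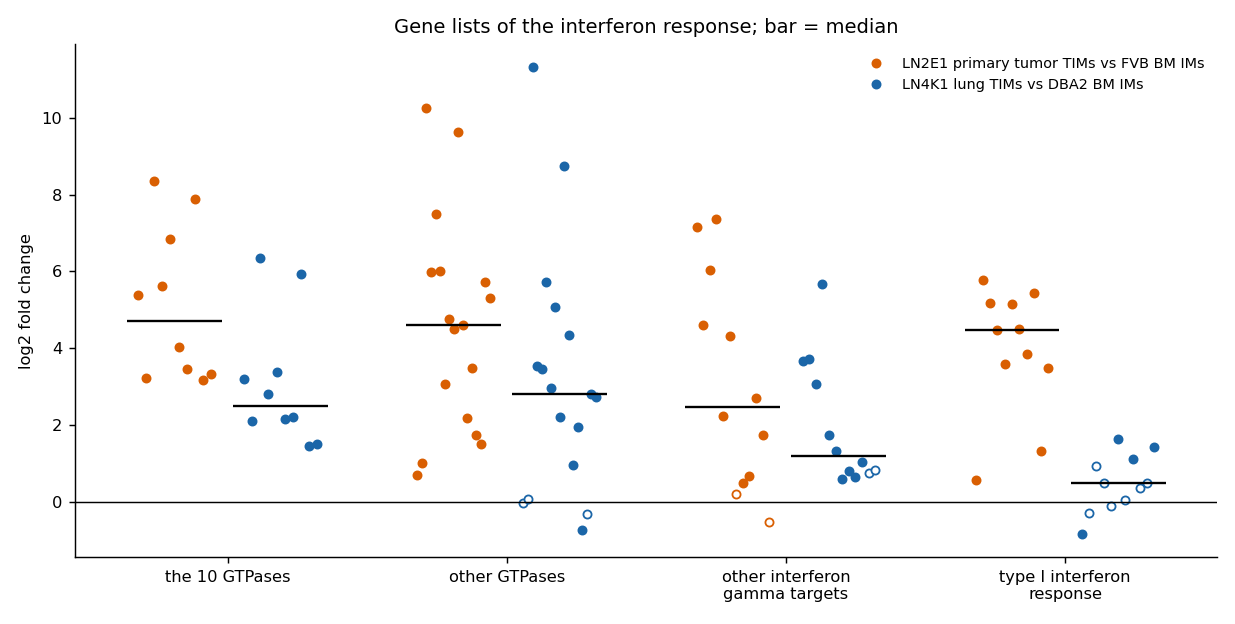
Log2 fold change (y axis) of each gene in 4 lists in LN2E1 primary tumor TIMs against FVB BM IMs and in LN4K1 lung TIMs against DBA2 BM IMs, with filled points at an adjusted p under 0.05, open points at a larger one and bars at list medians. The medians of the 10 GTPases are 4.72 and 2.51 and those of the type I interferon response 4.46 and 0.49, and 2 of the highest points of the other GTPases are genes with at most 1 count in a marrow library.

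Genes of partners with which the proteins act were counted as well. Of 6 inflammasome genes, 5 rose in primary tumor, 4 in lymph node and 4 in lung TIMs. Casp4, which encodes the sensor of bacterial lipopolysaccharide that guanylate-binding proteins expose it to, rose by 2.08 ± 0.14, 2.38 ± 0.21 and 2.04 ± 0.19 (SE), and Il18, a cytokine that caspases release, by 2.40, 2.73 and 1.72. Of 11 genes of the ATG8 conjugation machinery, which places these GTPases on vacuoles, 5, 5 and 3 rose and 0 fell (33.3%, 20.2% and 13.9% of all genes tested rose), with log2 fold changes no higher than that of Map1lc3a in primary tumors (1.16 ± 0.17, SE, adjusted p = 0.000257). The prenylation list held 5 genes for enzymes of the pathway that gives Gbp2 and Gbp5 a lipid anchor. Of these, Icmt rose by 1.44 ± 0.16 in primary tumors and 1.34 ± 0.31 in lymph nodes (SE). Fnta and Rce1 fell in primary tumors (-0.60 and -0.31), and none of the 5 passed in lung TIMs. The median log2 fold change of the prenylation list was 0.26, -0.01 and 0.08 in the 3 comparisons.

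Each GTPase was also set against 8016 genes with a mean log2 CPM above 3 to find the genes with the most similar course over the 21 libraries, measured as the root mean square difference of log2 CPM after centring each gene. The smallest difference was between Gbp3 and Igtp, at 0.199, although they lie on different chromosomes, and Gbp7 was closest to Igtp as well, at 0.256. Irgm1 was closest to Ifi47, another immunity-related GTPase (0.280), with Irf1 second (0.319). Gbp2 (0.351) and Gbp5 (0.558) were closest to Cxcl10, the interferon-induced chemokine. Irgm2 was closest to Nod1, a sensor of bacterial cell wall (0.283). Gbp4 was closest to Upp1, a uridine phosphorylase gene (0.723), with Iigp1 next (0.728), Iigp1 to Gbp4, and Gbp6 to Tgtp2 (0.850). Of the 30 nearest genes, 3 for each, 9 were among the 10 GTPases, 7 were other interferon-induced GTPases and 14 were other genes. Libraries of a group share tissue and strain, and these distances are given as a description.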

How the data were processed

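The authors trimmed adapters with BBDuk, used BBMap to align reads to mm10, and assigned reads to genes with featureCounts 1.5.2 from Subread, with SAMtools 1.8 also named in the submitters' processing notes. The annotation and the handling of reads that fit several genes are not given in the sources used here. The deposited values are raw counts for 23420 gene symbols in 21 libraries (80772922 to 101043568 counts each), and no library was left out. Groups follow the sample labels.

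Each comparison was fitted over all genes on its own libraries in R 4.3.3 with edgeR 4.0.16 (TMM factors, filterByExpr set to 10 counts and a total of 15, robust quasi-likelihood test, Benjamini-Hochberg adjustment). The interaction used the 4 groups it involves. "Rose" and "fell" mean an adjusted p under 0.05, and for a DEG the adjusted p was under 0.0001 with a change of over 1 on the log2 scale in either direction. A standard error is the absolute log2 fold change divided by the square root of F, which is approximate. Log2 CPM used a prior count of 2. The fitting script was tested on simulated data with 200 changed genes. A count of 0 allows up to 3 counts, and this covers counting error only. The alternatives were DESeq2's size factors, looser and stricter filters, all 5 groups in 1 fit, the replicate number as a block, DESeq2 1.42.0 and leaving out each library.

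The 10 genes and the gene lists were chosen with earlier results of these data known. All 10 are named, and from each other list up to 3 genes that passed with the largest absolute change in a comparison could be named, with Ifng and Irf1. The list of interferon transcription factors is not reported here as a whole. Genes named outside that rule (Gbp8, Gbp9, Gbp10, Mx1, Cmpk2, Irf2, Irf8, Irf9, Ptpn2, Pias1 and the low interferon genes) were chosen after their values were seen. Summaries used pandas 2.3.3 and plots matplotlib 3.10.9 (Python 3.11.15).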

Additional observations from a re-analysis of the deposited data

Results flagged for a closer look

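In LN4K1 lung TIMs, the Gbp5 value of replicate 5 was 20.7 CPM, below the other 4 (44.4 to 59.3 CPM). On the log2 CPM scale its gap to the nearest was 0.724 of the range of the group, above the 95% limit of Dixon's test for 5 samples. It was the only such value among 30 groups of libraries tested, and chance gives about 1 in 20.

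The change in LN2E1 primary tumors exceeded the change in LN4K1 lung metastases by the interaction test (edgeR, adjusted p under 0.05) for 9 of the 10 GTPases. The log2 differences were 2.22 for Gbp2, 1.14 for Gbp3, 2.04 for Gbp4, 2.81 for Gbp5, 3.49 for Gbp6, 1.90 for Gbp7, 1.74 for Irgm1, 1.83 for Irgm2 and 1.28 for Igtp. Line, strain, route, number of injected cells and primary tumor against metastasis cannot be told apart in this difference.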

How the results depend on the processing

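Over all alternatives, 930 log2 fold changes of single GTPases kept their direction and their side of the threshold, 13 newly passed it, 17 no longer passed and 7 changed sign. That all 10 GTPases rose in TIMs held in each alternative for each of the 3 comparisons with marrow. With the replicate number as a block (replicate block), 0 of 10 were DEGs in the primary tumor, lymph node and lung comparisons, against 10, 10 and 5 without it, and no gene of the whole table was a DEG in these fits. Same-numbered libraries did not deviate together (correlations -0.154 to 0.0843). Libraries of different numbers were not correlated for comparison, so this cannot show whether any came from the same animal. The labels tie the numbers to no animal, and the main fits did not pair them. In LN4K1 lung TIMs the count of DEGs was 10 with all 5 groups in 1 fit and 10 with DESeq2, shrunken or unshrunken, and 0 to 6 with a library left out. Over all genes, DEGs that were higher numbered 474 of 15357, 871 or 894 of 17612, and 25 to 373 in these fits. For lymph node against primary tumor TIMs, 3 to 7 GTPases changed with a library left out (7 without lymph node replicate 3). With unshrunken DESeq2 1 was a DEG, where 48 of 18759 genes were DEGs and higher. For DBA2 against FVB BM IMs, 3 to 7 changed with a library left out, 1 was a DEG under the looser filter, the stricter filter and the fit of 5 groups, and 3 were DEGs with DESeq2, shrunken or unshrunken. Over all genes, DEGs that were higher numbered 75 of 16692, 58 of 11544, 92 of 15357, and 391 or 443 of 16692 in these fits. Among the 10 GTPases, the DEG counts with a library left out were 0 in both of these comparisons, 9 to 10 for lymph node TIMs and 10 for primary tumor TIMs. The interaction passed for 9 to 10 of them. The sign changes lay near 0. Gbp5 in lymph node against primary tumor TIMs was 0.081 and 0.015 without primary tumor replicate 2 or 4 and 0.193, 0.012 and 0.024 without lymph node replicate 1, 3 or 5, in a range of -0.228 to 0.193. Gbp4 in DBA2 against FVB BM IMs was 0.092 without FVB BM IM replicate 1 and 0.029 without DBA2 BM IM replicate 2, in a range of -0.586 to 0.092. The cause of these shifts was not tested. The interaction has no fit with shrunken DESeq2 estimates, which was not run. Depth limits Gbp4, Gbp6 and Iigp1 in BM IMs, which rest on 3 to 124 counts in all but DBA2 Gbp6.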
